A study of Mus musculus with 62 samples.

Results

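The genes described here are the mouse phase II enzymes of the glutathione S-transferase (GST), microsomal glutathione S-transferase (MGST), UDP-glucuronosyltransferase (UGT) and sulfotransferase (SULT) families. Members were chosen by name alone: protein-coding genes whose symbol starts with Gsta, Gstm, Gstp, Gstt, Gstk, Gsto, Gstz, Mgst, Ugt1a, Ugt2, Ugt3a or Sult and goes on with a number. The rule found 67 of the 48795 genes in the count table: 22 soluble GSTs, 3 MGSTs, 21 UGTs and 21 SULTs. A read count was found for 66 of them in at least 1 library and for 26 in all 62 libraries, and *Ugt2a1* had none.

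The study sequenced liver, inguinal subcutaneous fat (SAT) and gonadal visceral fat (VAT) of C57BL6 mice with a whole-body deletion of exon 5 of *Fam13a* (KO), made from KOMP embryonic stem cells, and of wild-type mice (WT). Males were kept on chow with 18% of kcal from fat or were given a high-fat diet (HFD) with 45% of kcal from fat at the age of 8 weeks for 14 weeks and killed at 22 weeks. The age of the chow-fed males that were sequenced was not given in the sources used here. The paper weighed and stained fat depots of chow-fed males at 14 weeks of age, so age may differ between the diets as well. Females were sequenced on HFD only, and only their fat depots. Each of the 16 groups of tissue, sex, diet and genotype had 4 libraries, except the WT females with 3 in each depot. The chow libraries of each tissue were run on a lane of their own, so diet and lane cannot be told apart. Libraries of the same mouse cannot be linked across tissues from the labels.

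Total gene counts ran from 4959783 to 28723319 per library with a median of 21694089. The nuclear ribosomal RNA gene took between 0.0127% and 75.4% of them and over 15% in 13 libraries, and its median was 0.0269% in WT liver and 4.20% in KO liver. *Fam13a* itself had median levels of 34.5 CPM (counts scaled to the same library size) in KO liver against 51.2 in WT liver, 75.4 against 93.3 in SAT and 30.1 against 54 in VAT, and the ranges of the genotypes overlapped in each tissue. It was called lower in KO in SAT (edgeR log2 fold change −0.74, adjusted p = 0.0323) but not in VAT (−1.01, adjusted p = 0.474) or liver (−0.68, adjusted p = 0.235). Only exon 5 is deleted, so gene-level counts check the KO labels only in part. A few fat libraries stood apart. Epididymis markers (12 of 12 listed genes counted) summed to 11190 CPM in replicate 1 of the male chow VAT KO group and to 6414 CPM in replicate 2 of the male chow VAT WT group. *Prm1*, a protamine gene of sperm cells, reached 504 CPM in replicate 4 of the male HFD VAT WT group and 122 CPM in replicate 4 of the male chow VAT KO group, against a male VAT median of 0.0727. Skeletal muscle markers summed to 17842 CPM in replicate 1 of the male chow SAT KO group. Values without them are given beside the main results that they moved. In bulk tissue, fewer cells of a type and less RNA per cell cannot be told apart.

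Phase II enzymes join a small, usually charged group to a drug, toxin, hormone or bile product so that it can leave the cell and the body. GSTs add glutathione, UGTs add a sugar from a UDP-sugar (glucuronic acid in most cases) inside the endoplasmic reticulum, and SULTs add sulfate from the donor PAPS in the cytosol. The liver is the main site of this chemistry in the body, and several GSTs also act on the aldehydes and peroxides that oxidised lipids leave behind, which is one reason they are studied in fat.

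Levels differed first of all by tissue. In liver of the 16 males, median summed levels in TPM (counts scaled by gene length and library size) were 1738 for the soluble GSTs, 2784 for the MGSTs, 901 for the SULTs and 2688 for the UGTs. In SAT the same sums were 720, 981, 166 and 27.6 TPM, and in VAT 1039, 921, 158 and 44.3 TPM. Fat thus held GSTs and MGSTs at levels within a few-fold of those in liver, while UGT sums ran from 2095 to 3371 TPM in liver libraries and from 14.2 to 52.7 TPM in male fat libraries, with no overlap. Together the members took 0.199% to 1.0% of all counts in liver, 0.083% to 0.189% in SAT and 0.0679% to 0.243% in VAT.

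**Figure D1:**
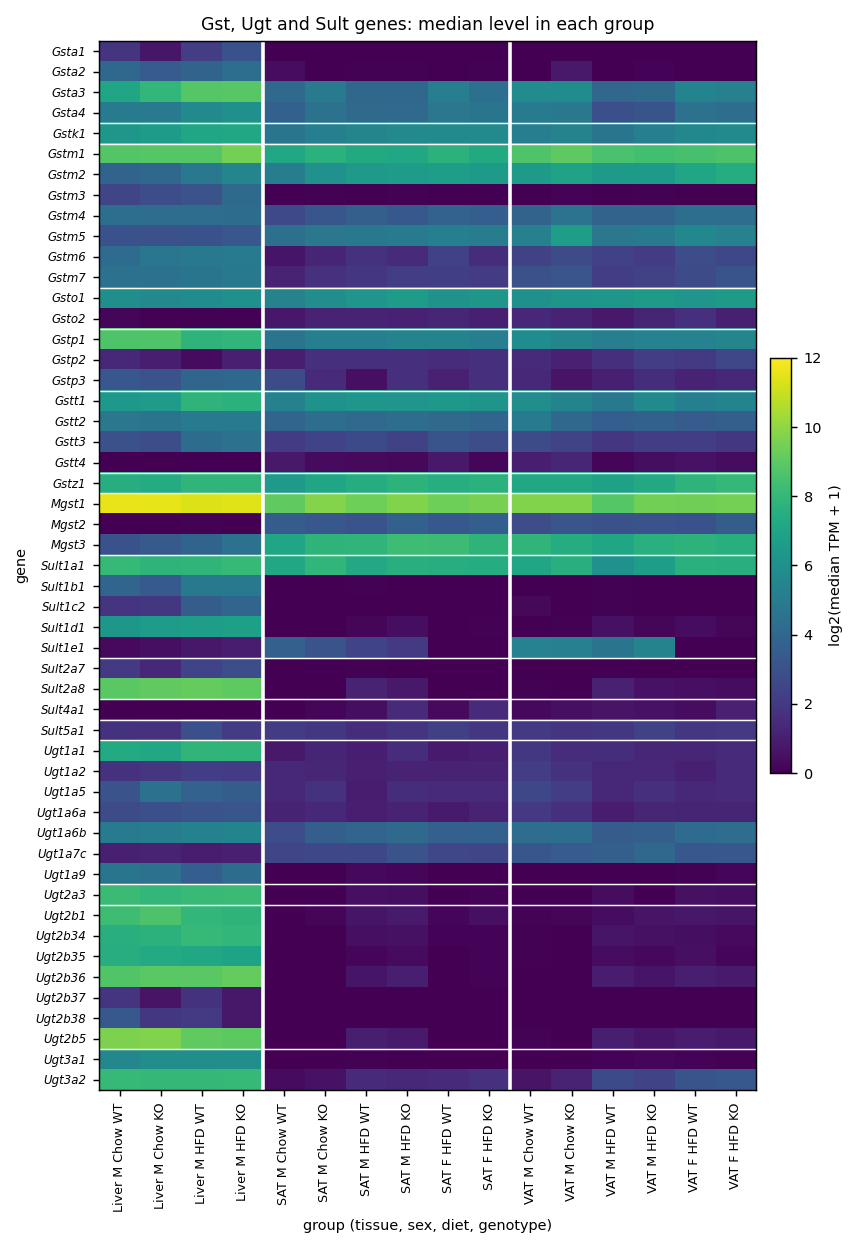
Heat map of log2(median TPM + 1) for 51 members (rows) in the 16 groups of tissue, sex, diet and genotype (columns). *Mgst1* is high in every group, while most *Ugt2b* genes, *Ugt2a3* and *Sult2a8* are bright in the liver columns and near 0 in the fat columns.

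In WT males on chow the most abundant member of each tissue was *Mgst1*, which sits in membranes of the endoplasmic reticulum and the outer mitochondrial membrane. Its level was 3239 TPM ± 532 (SD, n = 4) in liver, 601 ± 197 in SAT and 914 ± 189 in VAT. In liver it was followed by the steroid-conjugating *Ugt2b5* (827 TPM ± 92.6), *Ugt2b36* (473 ± 92.6), the bile acid sulfotransferase *Sult2a8* (459 ± 114), *Gstm1* (399 ± 119), *Gstp1* (387 ± 57.9), *Ugt2b1* (296 ± 60.1) and *Ugt2a3* (284 ± 27.1). The neighbours from *Ugt2b36* to *Gstp1* in this order differ by less than the SD of *Ugt2b36*. In SAT the order after *Mgst1* was the phenol sulfotransferase *Sult1a1* (150 TPM ± 40.3), *Mgst3* (145 ± 36.0), *Gstm1* (134 ± 24.4), *Gstz1* (82.1 ± 17.6), *Gsto1* (40.6 ± 2.36), *Gstt1* (40.3 ± 11.7) and *Gstm2* (34.6 ± 8.99), and the first 3 of these differ by less than the SD of *Sult1a1*. In VAT it was *Gstm1* (405 TPM ± 46.9), *Mgst3* (233 ± 44.3), *Gstz1* (145 ± 39.6), *Sult1a1* (143 ± 24.6), *Gstm2* (111 ± 48.4), *Gstm5* (83.1 ± 97.6, n = 4) and *Gsto1* (61.0 ± 11). The SD of *Gstm5* exceeds its mean, so its place in this order is uncertain. This VAT group also includes replicate 2 with epididymis markers. *Gstz1* isomerises maleylacetoacetate in tyrosine breakdown, and *Gsto1* reduces dehydroascorbate and methylated arsenic. No UGT was among the 8 highest members of either depot. These levels are a description with no test.

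Most members sit in clusters of near relatives, which matters for counting. On GRCm38 the 7 *Gstm* genes lie within chr3:107895821-108044894, the 3 *Gstp* genes within chr19:4035407-4059569, the 4 *Gstt* genes within chr10:75774115-75837424 and the 7 *Ugt2b* genes within chr5:86889767-87424203. The 9 *Ugt1a* genes at chr1:88055388-88220002 each join their own first exon to the same last exons, and 50.3% to 60.6% of the exon bases of each are shared with the other 8. Reads on shared bases were left out of the deposited gene counts, so a *Ugt1a* value here reads mainly the gene's own first exon, and its TPM, taken over the whole length, is too low. *Ugt2a1* and *Ugt2a2* share 98.8% and 94.5% of their exon bases in the same way. Reads that fit several near-identical genes of a cluster can be split or lost, so values of single *Gstm*, *Gstp*, *Sult2a* and *Ugt2b* genes are uncertain.

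The comparison of liver with fat in males asks which members belong to which tissue. Among the 54 members with enough counts to test, 43 were higher in liver and 9 higher in fat at a false discovery rate (FDR) of 10%, against 85.3% of all genes called in this comparison, 38.3% higher and 47% lower. The median log2 fold change was 3.74 over the members and −0.19 over all genes tested. It was the same with *Gsta1* at its bound, since *Gsta1* had no count in the 32 male fat libraries and was at least 674-fold higher in liver against a floor of 3 counts over those libraries. For 34 of the 52 called members the liver and fat libraries did not overlap (65.4%, against 26.7% of all genes called).

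By family, 18 of the 19 tested UGTs were higher in liver, with a median log2 fold change of 8.79, as were 17 of 22 GSTs, 7 of 10 SULTs and 1 of 3 MGSTs. *Ugt1a1*, the enzyme that conjugates bilirubin, had a lowest level of 160 CPM, a median of 308 and a highest of 418 in liver, and 0.158, 1.01 and 2.38 CPM in fat. Its log2 fold change was 8.23 (SE 0.13, edgeR adjusted p = 5.42e-38). All 16 liver libraries lay far above all 32 fat libraries. *Ugt2b1* ran from 254 to 899 CPM in liver and from 0 to 1.73 in fat, a log2 fold change of 11.17. *Ugt3a2*, which uses sugars other than glucuronic acid, differed by 8.79 on that scale, and *Ugt3a1*, which uses N-acetylglucosamine, by 11.76. The 4 members with the largest called values were *Ugt2a3* (12.74), *Ugt2b36* (12.56), *Ugt2b5* (12.55) and *Ugt2b35* (12.51), with *Sult2a8* next at 12.40.

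The GSTs differed less. *Gsta3*, the alpha-class enzyme that detoxifies aflatoxin epoxide in mice, had a lowest, median and highest level of 241, 952 and 2060 CPM in liver and of 9.86, 22.9 and 101 CPM in fat. The log2 fold change was 4.99 (SE 0.13), with no overlap. *Gstp1* differed by 4.36 on the log2 scale, *Gstk1*, a mitochondrial and peroxisomal GST, by 3.00 and *Mgst1* by 3.36. Even so, *Mgst1* never fell below 204 CPM in a fat library. *Gsto1* and *Gstz1* differed by only 1.14 and 1.87.

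RefSeq promoters on GRCm38.p6 were found for 59 members, and the 250 bases before each start were searched on both strands for 9 short patterns. The HNF1-type pattern, named for a factor of liver, kidney and gut and spelled GTTAAT, any base and ATT, stood in 8 members (13.6%) and in 0.44% of the 27025 genes with a promoter. These were *Ugt1a1*, *Ugt1a9*, *Ugt1a10*, *Sult1d1*, *Sult2a3*, *Sult2a4*, *Sult2a5* and *Sult2a6*, and the *Sult2a* genes are near-copies, so they are not separate cases. These 4 *Sult2a* genes had 0 counts in the 16 liver libraries and between 3 and 18 counts over all fat libraries, so the members with the pattern are not all liver genes. The last 150 bases before the start are shown for 3 of them, with the pattern in capitals, and for *Ugt1a7c* of the same cluster, which holds no such match. *Ugt1a2*, *Ugt1a5*, *Ugt1a6a* and *Ugt1a8* hold none either and were called higher in liver, while *Ugt1a7c* was higher in fat, so the pattern does not part the cluster by tissue. Coordinates are given with the strand of the gene, and each sequence runs 5′ to 3′.

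*Ugt1a1*, chr1:88211809-88211958, plus strand: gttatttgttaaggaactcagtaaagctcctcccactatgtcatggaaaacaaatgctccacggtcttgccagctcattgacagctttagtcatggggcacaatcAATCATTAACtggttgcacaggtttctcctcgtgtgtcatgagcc
*Ugt1a9*, chr1:88070629-88070778, plus strand: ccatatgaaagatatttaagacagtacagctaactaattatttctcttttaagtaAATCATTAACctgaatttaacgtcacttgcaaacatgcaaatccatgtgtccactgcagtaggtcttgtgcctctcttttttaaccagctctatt
*Sult1d1*, chr5:87569007-87569156, minus strand: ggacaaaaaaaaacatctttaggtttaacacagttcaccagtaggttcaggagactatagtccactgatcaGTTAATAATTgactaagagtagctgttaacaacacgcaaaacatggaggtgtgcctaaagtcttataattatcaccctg
*Ugt1a7c*, chr1:88094851-88095000, plus strand: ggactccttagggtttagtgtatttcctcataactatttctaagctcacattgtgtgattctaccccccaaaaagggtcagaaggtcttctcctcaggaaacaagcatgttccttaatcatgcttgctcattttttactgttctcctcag

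In *Ugt1a1* and *Ugt1a9* the capitals read AATCATTAAC, the reverse complement of the pattern, and begin 45 and 95 bases before the start. In *Sult1d1* they read GTTAATAATT and begin 79 bases before it. The antioxidant response element core TGACNNNGC, the DNA element bound by Nrf2, was in 4 members (6.78%) against 11.5% of all genes, namely *Gsta3*, *Gstm5*, *Gstm7* and *Mgst1*. The promoter of *Gsta3*, the member of smallest p for diet in VAT, is shown with this core in capitals, beginning 121 bases before the start.

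*Gsta3*, chr1:21240435-21240584, plus strand: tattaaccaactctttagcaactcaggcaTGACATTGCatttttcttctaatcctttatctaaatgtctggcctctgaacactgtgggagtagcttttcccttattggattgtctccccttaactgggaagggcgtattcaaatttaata

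The other patterns were TATAAA (22% of members, 14.3% of genes), TTGCNNAA of the C/EBP type (18.6% and 10.8%), the GC box GGGCGG (25.4% and 35.4%), GCGTG of the dioxin receptor (18.6% and 30.9%), CACGTG (0% and 6.86%), CAAAGTCCA of the HNF4 type (0% and 0.451%) and the direct repeat of AGGTCA with 1 base between the copies (0% and 0.0407%). GCGTG overlaps the antioxidant core in *Gstm5*. A match is a description of letters only.

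The 9 members higher in fat than in liver included the leukotriene C4-forming MGSTs. *Mgst2* ran from 0 to 0.213 CPM in liver and from 3.68 to 14.6 CPM in fat, a log2 fold change of −6.56 (SE 0.27, edgeR adjusted p = 2.21e-24). *Mgst3* ran from 3.55 to 21.1 CPM in liver and from 32 to 116 CPM in fat, with a log2 fold change of −2.54. For both genes every liver library lay below every fat library. *Ugt1a7c* was the only UGT called in this direction, with 1.02, 3.53 and 5.23 CPM in liver as lowest, median and highest and 4.87, 8.78 and 19.3 CPM in fat (log2 fold change −1.48), and the ranges met at the edge. The oestrogen sulfotransferase *Sult1e1* (−2.15), the cholesterol sulfotransferase *Sult2b1* (−4.09) and *Gstm2* (−0.57) were also lower in liver, with overlapping ranges. The fitted values of *Gstt4* (−3.97), *Gsto2* (−3.09) and *Gstm5* (−1.30) rest in part on the libraries with *Prm1*, where *Gstt4* reached 43.7 CPM against a male VAT median of 0.179, *Gsto2* 37.1 against 0.832 and *Gstm5* 277 against 12.6. Without the 4 VAT libraries that stood apart *Gsto2* was at −2.26 and *Gstm5* at −0.54, and *Gstt4* no longer had enough counts. Among the members named above or below, *Sult2b1* went to −3.08, *Sult1c2* from 6.86 to 8.59 and *Gstm7* from 2.91 to 4.06.

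The depots were compared in the same fit of male libraries. Of 54 tested members 21 were higher and 5 lower in VAT than in SAT, against 40.5% of all genes called, 22.5% higher and 18% lower. The median log2 fold change was 0.65 over the members, or 0.62 with *Gsta1*, *Ugt2b37* and *Ugt2b38*, which had no count in an arm, at their bound, and 0.02 over all genes. The mu-class gene *Gstm1* had a lowest, median and highest level of 119, 144 and 285 CPM in VAT and of 35.9, 64.8 and 162 CPM in SAT (log2 fold change 1.18, SE 0.12, edgeR adjusted p = 1.34e-09). *Ugt1a7c* stood at 8.35, 13.8 and 19.3 CPM in VAT and 4.87, 6.47 and 9.09 in SAT (1.02), and *Sult1e1* at 1.64, 9.25 and 20.8 CPM in VAT and 0.0425, 2.14 and 7.93 in SAT (2.32). The VAT median lay above the highest SAT library for *Ugt1a7c* and *Sult1e1*, but not for *Gstm1*. For no called member were the ranges fully apart (0%, against 1.16% of all genes called). The 5 members lower in VAT were *Sult1a1* (−0.64), *Gstp3* (−0.81), *Gstt1* (−0.54), *Mgst2* (−0.39) and *Mgst3* (−0.33).

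Several values of this comparison rest on the 4 VAT libraries with epididymis or sperm-cell RNA. *Gstm7* ran from 0.939 to 13.4 CPM in the other male VAT libraries, but was at 411 CPM and 52.9 CPM in the 2 with epididymis markers, and *Sult1c2* was at 10.8 and 5.51 CPM there and at most 0.207 CPM in the others. Without the 4 libraries 18 members were called, 15 higher and 3 lower, against 35.8% of all genes. The log2 fold change of *Gstm5* went from 1.76 to 0.26, that of *Sult1c2* from 5.17 to 1.64 and that of *Gstm7* from 3.19 to 0.90. *Gsta2* and *Gsto2* changed sign, to −0.85 and −0.07. *Gstp1*, *Gstp3*, *Mgst2*, *Mgst3*, *Sult1b1* and *Sult1d1* were also no longer called, and *Gstt4* no longer had enough counts. Macrophage markers were called higher in VAT for 9 of 10 genes and lymph node markers lower for 11 of 11 tested, and their part in these differences was not tested.

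The HFD comparison in liver asks how the enzymes differed between males on HFD and on chow, with genotype as a covariate. Of 49 tested members 21 were higher and 8 lower on HFD, against 40.8% of all genes called in either direction, 20.6% higher and 20.2% lower. The median log2 fold change was 0.22 over the members and −0.00 over all genes. The direction differed between families: 14 GSTs were higher and 2 lower of 20 tested, while 3 UGTs were higher and 5 lower of 19.

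*Sult1c2*, a cytosolic sulfotransferase of the 1C class, had a lowest, median and highest level of 7.38, 18.7 and 20.1 CPM on HFD and of 2.13, 3.76 and 5.68 CPM on chow, a log2 fold change of 2.03 (SE 0.20, edgeR adjusted p = 5.5e-07). *Gstt3*, a theta-class GST, stood at 42.1, 52.4 and 69.8 CPM on HFD and at 8.68, 19.4 and 34.0 CPM on chow (1.36, SE 0.16). These were the 2 of 29 called members in liver whose diet groups did not overlap (6.9%, against 11.8% of all genes called). *Gstm2* had 24.9, 44.7 and 58.2 CPM on HFD and 14.3, 17.3 and 26.3 CPM on chow (1.08, SE 0.11). *Sult1b1*, which conjugates thyroid hormones and phenols, had 28.5, 56.7 and 63.2 CPM on HFD and 14, 25.7 and 31.5 CPM on chow (1.05, SE 0.11). In both genes the ranges met only at the edge.

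*Gsta3* rose from a median of 590 CPM to 1433 CPM in liver, with a log2 fold change of 1.22, and the ranges overlapped. The other GSTs that rose covered each class but omega: *Gsta1* (1.66), *Gsta4* (0.90), which conjugates the lipid peroxidation product 4-hydroxynonenal, *Gstm3* (1.13), *Gstm1* (0.44), *Gstm6* (0.43), *Gstm7* (0.21), *Gstt1* (1.05), *Gstt2* (0.23), *Gstp3* (0.86), *Gstk1* (0.54) and *Gstz1* (0.31). *Gstm7* and *Gstt2* lost the call when some single libraries were left out, in 7 and 9 of 16 cases. *Mgst3* (0.86), *Sult5a1* (1.24), *Ugt1a1* (0.45), *Ugt1a6a* (0.30) and *Ugt1a6b* (0.27) were also higher on HFD.

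Of the 8 members that fell in liver, 5 were UGTs. *Ugt2b5*, the UGT of highest level, had a lowest, median and highest level of 434, 725 and 834 CPM on HFD and 823, 1119 and 1503 CPM on chow (log2 fold change −0.82, SE 0.12). *Ugt2b1* (−0.64), *Ugt2b35* (−0.40), *Ugt2b38* (−1.75) and *Ugt1a9* (−1.09) fell as well, while the abundant *Ugt2b36* (−0.04), *Ugt2a3* (−0.06), *Ugt2b34* (0.26) and *Ugt3a2* (−0.10) did not pass the test. The pi-class genes *Gstp1* (−0.72) and *Gstp2* (−1.45) and the abundant *Mgst1* (−0.33) were lower too. *Gstp3* of the same cluster was higher. With the WT libraries alone 19 members were called, 14 higher and 5 lower, against 4333 of 14144 genes. Of 10 hepatocyte markers 2 were higher and 5 lower on HFD with a median log2 difference of −0.22, and their sum ran from 83476 to 117760 CPM on HFD and from 89145 to 129890 CPM on chow.

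Genes that feed and steer these reactions were read from lists of the pathway. In liver 5 of 9 genes of cosubstrate supply were higher on HFD and 1 lower: *Ugp2* (log2 fold change 0.48), which makes UDP-glucose, the PAPS synthases *Papss1* (0.34) and *Papss2* (0.49), the transporters *Slc35d1* (0.43) and *Slc35b2* (0.23), and *Slc35b3* (−0.36). Of 8 tested genes of glutathione supply only *Chac1* (1.90), which breaks glutathione down, and *Oplah* (−0.31) were called, and of 9 tested Nrf2 targets only *Srxn1* (−0.27). Among the regulators, *Nr1i3*, which encodes the xenobiotic receptor CAR, rose by 0.86, *Ppara* by 0.41, *Arnt* by 0.32 and *Keap1* by 0.21. *Hnf4a* fell by 0.28 and *Esr1* by 0.61. None of the 6 export pumps was called.

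**Figure D2:**
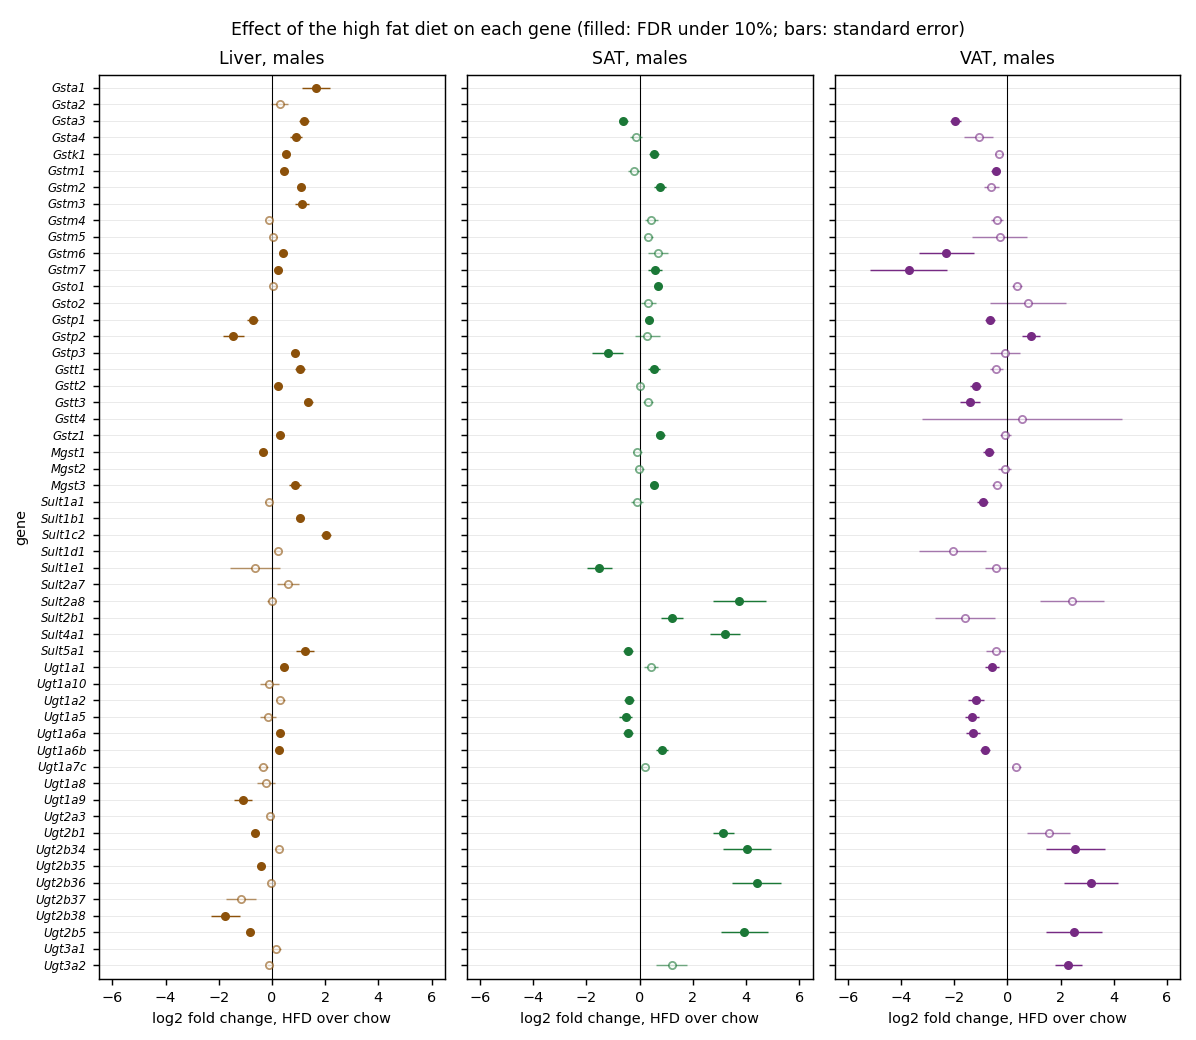
Log2 fold change of HFD over chow with its SE for each tested member in male liver, SAT and VAT (x axis, log2 units; filled points passed FDR 10%). *Gsta3* lies at 1.22 in liver, −0.61 in SAT and −1.96 in VAT.

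In SAT of males 16 members were higher and 7 lower on HFD of 38 tested, against 58% of all genes called, 28.5% higher and 29.6% lower. The median log2 fold change was 0.38 over the members and −0.02 over all genes. Among the members with a median of at least 1 TPM in SAT, 9 were higher and 7 lower of 31 tested. The 7 tested members under that level were low on chow, and most could pass the filter on low counts through the HFD libraries alone, so their direction is not a result.

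The called member of smallest p in SAT was *Ugt2b1*, with a lowest, median and highest level of 0.221, 0.532 and 0.947 CPM on HFD and of 0, 0.0533 and 0.122 CPM on chow (log2 fold change 3.15, SE 0.39, edgeR adjusted p = 4.79e-05). *Ugt2b36* stood at 0, 0.596 and 1.27 CPM on HFD and at 0, 0 and 0.122 CPM on chow (4.39, SE 0.94). *Ugt2b34* (4.04), *Ugt2b5* (3.94) and *Sult2a8* (3.74) showed the same picture, with counts in 7 or 8 of the 8 HFD libraries and, on chow, in replicate 2 of the KO group alone. These 5 genes are among the 11 members over 10 log2 units higher in liver than in fat, and their levels in SAT stayed far under those in liver.

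The whole list of 10 hepatocyte markers moved beside them. In SAT 9 of the 10 were called higher on HFD, with a median log2 difference of 3.02, and only *Fgb* was at 0 in a group, the chow SAT WT. Their sum ran from 18.4 to 229 CPM in male HFD SAT and from 7.80 to 38.7 CPM in chow SAT, while liver libraries held 83476 to 129890 CPM. The 11 liver-type members summed to between 0 and 13.4 CPM in male chow fat (median 0.0877) and between 0.266 and 15.4 CPM in male HFD fat (median 2.99). Per 100 CPM of hepatocyte markers that was a median of 5.11 CPM in HFD SAT (2.40 to 6.44), 5.03 in HFD VAT (1.63 to 9.02) and 5.14 in liver (3.91 to 6.58). It was 0.674 in male chow SAT (0 to 2.77), 2.47 in male chow VAT (0 to 60.9) and 2.72 in female HFD fat (0.397 to 5.01), so the ratio was not the same in all fat. The 60.9 came from replicate 1 of the male chow VAT KO group. The 13.4 CPM came from replicate 2 of the male chow VAT WT group. Both are libraries with epididymis markers. Hepatocyte markers ran from 16.4 to 276 CPM in the 24 HFD fat libraries on lanes without a liver library and from 15.9 to 61.6 CPM in the 6 on lanes with them, which were all from females, 5 of them SAT, so lane, sex and depot cannot be told apart here. With the hepatocyte score as a covariate 3 members were called in SAT, all higher, *Gsto1*, *Sult4a1* and *Ugt2b1*, and the calls over all genes went from 58% to 17.3%. Over all 46 fat libraries the sums had a Pearson r of 0.88 and a Spearman rho of 0.88, against 0.65 and 0.32 in the 16 male chow libraries alone, as a description of libraries that share depots and lanes.

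**Figure D3:**
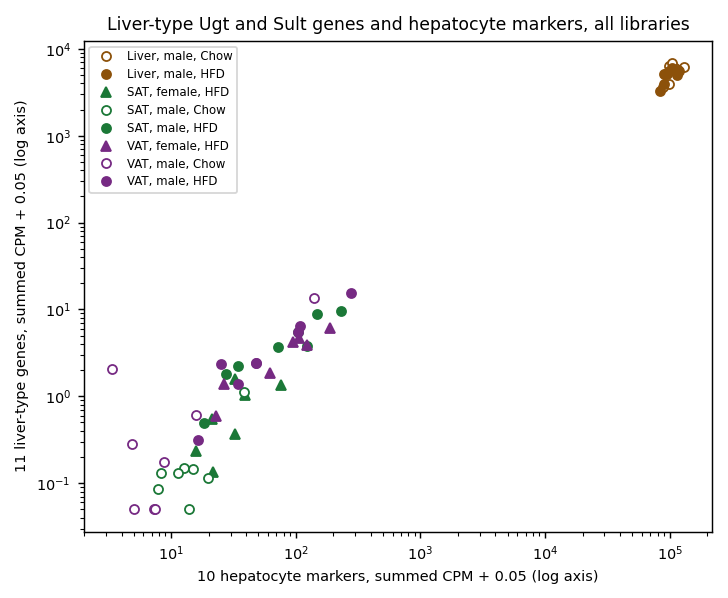
Summed CPM of the 11 liver-type members (y axis) against summed CPM of the 10 hepatocyte markers (x axis) in each of the 62 libraries, both as CPM + 0.05 on log axes. Liver libraries lie at 3263 to 6870 CPM on the y axis, and male HFD fat libraries at 0.266 to 15.4 CPM.

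Outside the liver-type members, *Gsto1* had a lowest, median and highest level of 35.0, 47.8 and 61.1 CPM in HFD SAT and of 20.4, 27.4 and 48.2 CPM in chow SAT (log2 fold change 0.70, SE 0.11, edgeR adjusted p = 2.78e-04). *Sult4a1*, a SULT of the brain with no settled substrate, at chr15:84076097-84105754, had 0.221, 0.397 and 2.16 CPM on HFD and 0, 0 and 0.397 CPM on chow (3.19, SE 0.57). *Gstz1* (0.78), *Gstm2* (0.77), *Mgst3* (0.53), *Gstk1* (0.55), *Gstt1* (0.53), *Gstp1* (0.33), *Gstm7* (0.57), *Ugt1a6b* (0.83) and *Sult2b1* (1.20) were higher on HFD as well. In most of them the chow range was the wider and reached into the HFD range. *Sult4a1* and *Sult2b1* are among the 7 tested members under 1 TPM in SAT described above, so their direction is not a result. Without replicate 3 of the male chow SAT WT group *Gstp1* had an adjusted p of 0.107.

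*Sult1e1*, which inactivates oestrogens by sulfation, fell in SAT, from 1.35, 2.72 and 7.93 CPM on chow to 0.0425, 1.04 and 2.42 CPM on HFD (log2 fold change −1.51, SE 0.47). *Gsta3* fell by 0.61, *Ugt1a6a* by 0.44, *Ugt1a5* by 0.52, *Ugt1a2* by 0.41, *Sult5a1* by 0.46 and *Gstp3* by 1.21 on the log2 scale. The adjusted p of the last 5 lay between 0.0516 and 0.0978, and each lost the call without at least 1 single library, *Sult5a1* only without replicate 4 of the male chow SAT WT group. Without the library with muscle RNA *Ugt1a2*, *Ugt1a5* and *Gstm7* were not called (adjusted p of 0.164, 0.136 and 0.127). Lymph node markers, of which 11 of 12 were tested, were lower on HFD in all 11. Their sum was 357 to 1064 CPM in chow SAT WT, 7.40 to 684 in chow SAT KO and 9.54 to 361 in HFD SAT WT. With that score as a covariate 11 members were called, 8 higher and 3 lower, against 26% of all genes, and *Gstp3* changed sign to 0.53. The part of lymph node RNA in the SAT differences was not tested beyond this.

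The pathway lists in SAT were mixed. Of 9 tested genes of glutathione supply 3 were higher and 4 lower, among them *Gss* (log2 fold change 0.65) and *Gclm* (0.48) against *Gclc* (−0.39) and the cystine transporter *Slc7a11* (−3.09). Of 6 export pumps 4 were higher, among them *Abcc3* (1.0) and *Abcc2* (1.88), and 1 was lower. Of 9 cosubstrate genes 4 were higher, among them *Bpnt1* (0.83) and *Papss1* (0.70), and 2 lower.

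In VAT of males the direction was the other way: 5 members were higher and 14 lower on HFD of 39 tested, against 44.2% of all genes called, 21% higher and 23.2% lower. The median log2 fold change was −0.42 over the members and −0.04 over all genes. Among members of at least 1 TPM in VAT, 2 were higher and 14 lower of 31 tested. GSTs made up 7 of the 14 and UGTs of the 1A cluster 5.

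*Gsta3*, at chr1:21240589-21265661, had a lowest, median and highest level of 9.86, 18.5 and 26.0 CPM on HFD and of 44.9, 68.6 and 101 CPM on chow in VAT, a log2 fold change of −1.96 (SE 0.22, edgeR adjusted p = 1.92e-05). Every HFD library lay below every chow library. *Gstt2* stood at 8.47, 13.1 and 15.7 CPM on HFD and at 14.8, 31.8 and 38.3 CPM on chow (−1.20, SE 0.21), with ranges that met at the edge. *Ugt1a5* stood at 0.577, 0.899 and 1.75 CPM on HFD and at 1.99, 2.62 and 3.76 CPM on chow (−1.34, SE 0.26). *Ugt1a6a*, which conjugates small phenols, stood at 0.584, 1.43 and 1.86 CPM on HFD and at 1.96, 2.70 and 5.34 CPM on chow (−1.29, SE 0.26). In neither *Ugt1a* gene did the diet groups overlap. With *Gsta3* these were the 3 of 19 called members in VAT without overlap (15.8%, against 18.5% of all genes called).

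Lower values were also called for *Ugt1a6b* (log2 fold change −0.85), *Ugt1a2* (−1.20), *Ugt1a1* (−0.59), *Sult1a1* (−0.94), *Gstt3* (−1.40), *Gstp1* (−0.65), *Gstm1* (−0.44) and *Mgst1* (−0.71). *Gstm7* (−3.71) and *Gstm6* (−2.30) had the largest fitted falls, but rest on the epididymis libraries. Without those 2 chow libraries their values were −0.02 and −0.03, each with an edgeR adjusted p of 0.98. In that fit 19 members were called, 7 higher and 12 lower, against 45.4% of all genes. Without the 4 libraries with epididymis or sperm-cell RNA 23 were called, 8 higher and 15 lower, against 48.5% of all genes. *Gstm7* was again among the lower ones there (−0.85, edgeR adjusted p = 0.0495), and *Gstm6* was not (−0.34, adjusted p = 0.427). *Gstt3* went from −1.40 to −0.61 without the 2 epididymis libraries and to −0.79 without the 4, still called lower. *Ugt1a1* was not called without the 2 (−0.64, adjusted p = 0.102).

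Of the 5 members that were higher, *Ugt3a2* had a lowest, median and highest level of 1.86, 4.14 and 5.25 CPM on HFD and of 0, 0.599 and 2.54 CPM on chow (log2 fold change 2.29, SE 0.50). *Gstp2* differed by 0.88, and was not called without the 2 epididymis libraries (0.69, adjusted p = 0.144). The liver-type *Ugt2b36* (3.14), *Ugt2b5* (2.5) and *Ugt2b34* (2.55) were called with medians of at most 0.534 CPM on HFD and 0 on chow. Without those 2 libraries they were at 5.70, 4.71 and 4.59. These liver-type genes could pass the filter on low counts through the HFD libraries alone, so their direction in VAT is not a result. Beside them, 6 of 9 tested hepatocyte markers were higher in HFD VAT, with sums of 16.4 to 276 CPM on HFD and 3.31 to 140 CPM on chow, and *Ttr*, *Fgb* and *Cyp7a1* were at 0 in the chow VAT KO group. *Ugt2b36* had an adjusted p of 0.112 without replicate 2 of the male HFD VAT WT group.

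Cell type markers shifted in the same libraries. All 10 macrophage markers were higher on HFD in VAT, with a median log2 difference of 2.76 and sums of 1888 to 5861 CPM on HFD against 411 to 1404 CPM on chow, and 9 of 10 adipocyte markers were lower, with sums of 6157 to 12700 against 7723 to 20860 CPM. With the macrophage score as a covariate edgeR called 0 of 39 members in VAT and 0 of all 17330 genes, so this says nothing about the members, of which 3 had an unadjusted p under 0.05. The score separates the diets, so diet and macrophage RNA cannot be told apart in these libraries.

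Of the 10 genes of glutathione supply 0 were higher and 4 lower in VAT, namely *Gclc* (log2 fold change −0.76), the rate-limiting enzyme of glutathione synthesis, *Gsr* (−0.63), *Chac1* (−0.70) and *Ggt1* (−4.21). Of 10 Nrf2 targets *Hmox1* rose by 1.28 and 3 fell, among them *Nqo1* (−1.94). *Nfe2l2*, the gene of Nrf2 itself, was higher by 0.24. *Ahr* (−0.73), *Ppara* (−0.73), *Arnt* (−0.53) and *Esr1* (−0.52) were lower. *Gusb*, a lysosomal enzyme that cleaves glucuronides, was higher by 2.07 and the carboxylesterases *Ces1d* (−2.07) and *Ces1f* (−2.72) were lower.

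Whether the diet difference itself differed between tissues was tested in the fit of all 48 male libraries, as HFD minus chow in liver minus the mean of the same difference in both depots. Of 54 tested members 15 had a higher and 13 a lower diet difference in liver than in fat. Over all genes 29.5% were called, 16.2% higher and 13.3% lower. The median was 0.15 over the members and 0.08 over all genes. GSTs accounted for 10 of the 15 higher values and UGTs for 10 of the 13 lower ones. Most of those UGTs are liver-type genes near 0 in most chow fat libraries, where hepatocyte markers were also lower than on HFD. Their values rest on low counts in fat, so no split between GSTs and UGTs is drawn from them. For *Gsta3* the value was 2.53 log2 units (SE 0.26, edgeR adjusted p = 4.8e-09), for *Gstt3* 1.97, for *Ugt1a6a* 1.19 and for *Gstm2* 1.05. For *Ugt2b5* it was −5.16 and for *Ugt2b1* −3.03, of which the diet difference within liver was −0.82 and −0.64 while their levels in fat were low counts. By the calls within each tissue, 9 of the 35 members tested in both (25.7%, against 4.02% of all genes tested in both) were higher on HFD in liver and lower in VAT: *Gsta3*, *Gstm1*, *Gstm6*, *Gstm7*, *Gstt2*, *Gstt3*, *Ugt1a1*, *Ugt1a6a* and *Ugt1a6b*. Of these, *Gstm6*, *Gstm7* and *Ugt1a1* were not called in VAT without the 2 libraries with epididymis markers. *Gstp2* and *Ugt2b5* had the opposite pattern (5.71% against 4.01%), and *Gstp1* and *Mgst1* were lower in both (5.71% against 5.6%). The direction of *Ugt2b5* in VAT is not a result, since the HFD libraries alone could carry it past the filter on low counts.

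**Figure D4:**
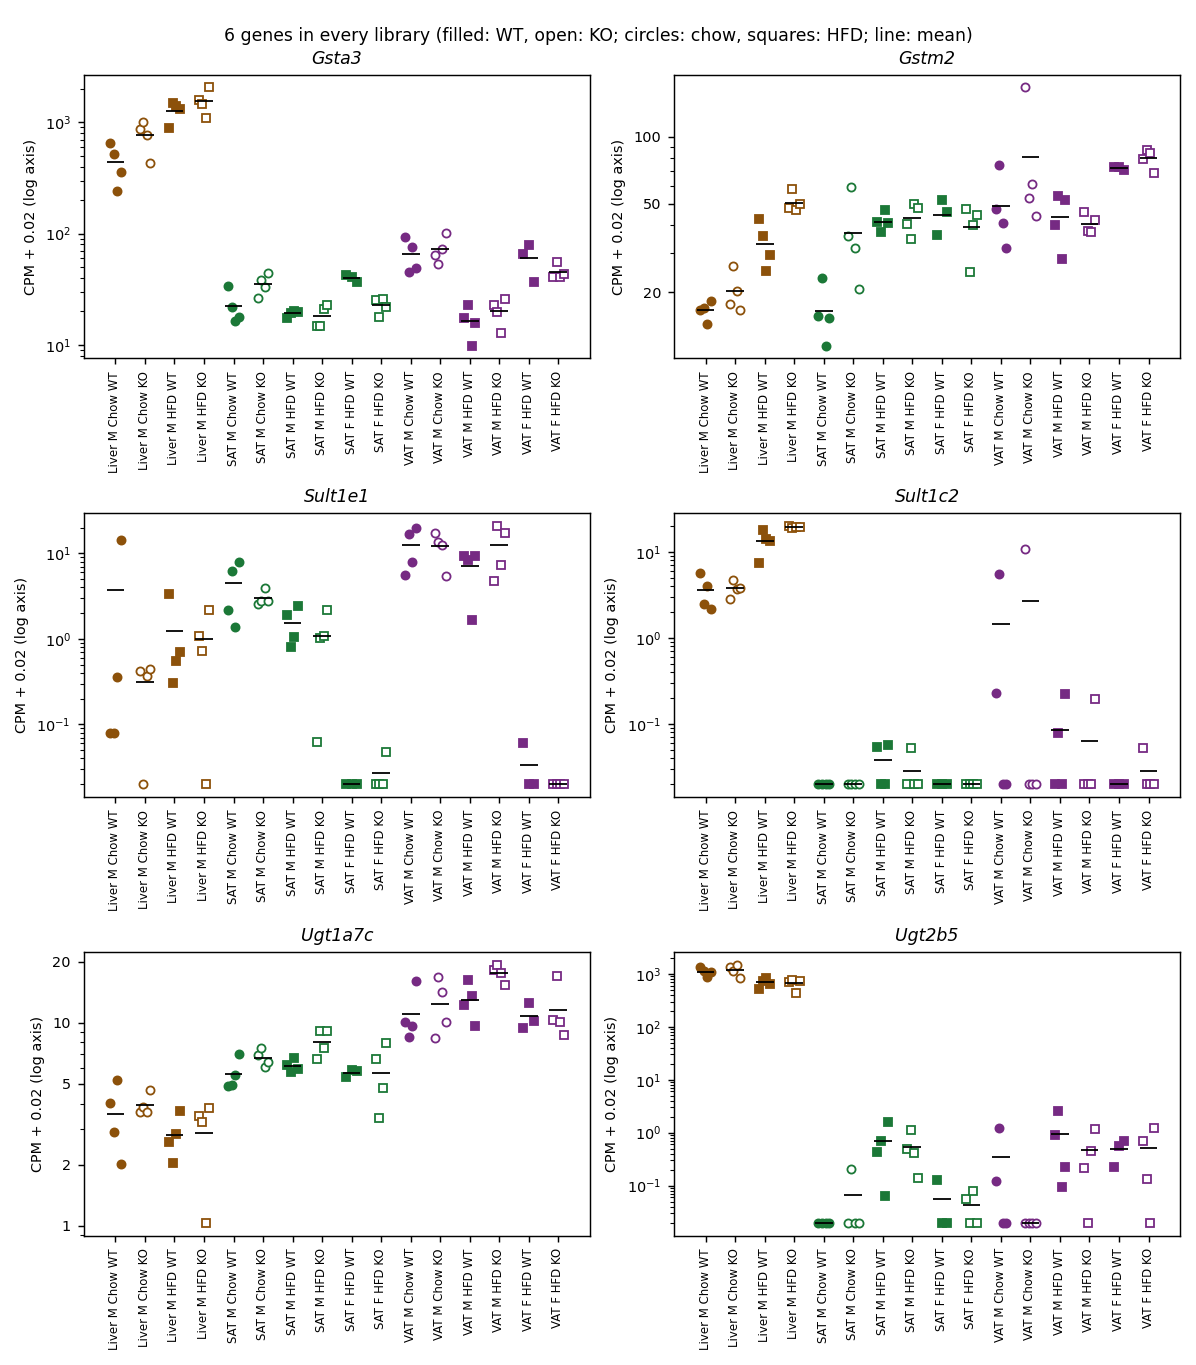
Levels of *Gsta3*, *Gstm2*, *Sult1e1*, *Sult1c2*, *Ugt1a7c* and *Ugt2b5* in each of the 62 libraries as CPM + 0.02 on log axes, by group (filled, WT; open, KO; circles, chow; squares, HFD; line, mean). *Gsta3* is higher on HFD in liver and lower on HFD in male VAT, and *Sult1e1* is near the floor in all female libraries.

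The KO comparison asks which members differ with the *Fam13a* genotype. In SAT, fitted over males and females with terms for diet and sex, 2 of 39 tested members were called, both higher in KO, against 4.33% of all genes called (3.45% higher and 0.888% lower). The median log2 fold change was 0.19 over the members and −0.01 over all genes, and 8 members had an unadjusted p under 0.05. *Sult4a1* differed by 2.57 log2 units (SE 0.50, edgeR adjusted p = 0.0137) and *Gsto1*, at chr19:47854970-47864790, by 0.41 (SE 0.12, adjusted p = 0.0868). Markers moved with genotype in the chow SAT libraries: median sums were 1009 CPM in WT and 31.1 CPM in KO for the lymph node list and 9414 and 19256 CPM for the adipocyte list, and ribosomal RNA had medians of 16.4% and 1.63%. With the adipocyte score as a covariate *Sult4a1* stayed called (2.10, edgeR adjusted p = 0.010) and *Gsto1* did not (0.20, adjusted p = 0.386), against 1.52% of all genes called, and with the lymph node score they were at 2.26 (adjusted p = 0.0154) and 0.28 (adjusted p = 0.148), against 2.4%. Without the library with muscle RNA *Gsto1* had an adjusted p of 0.121.

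*Sult4a1* was at 0 CPM in all 4 chow SAT WT libraries and at 0.10, 0.397, 0.132 and 0 CPM in the chow SAT KO libraries. In male HFD SAT it was at 0.236, 0.303, 0.221 and 0.294 CPM in WT and at 1.11, 0.490, 1.39 and 2.16 CPM in KO. In female HFD SAT it was at 0.146, 0.172 and 0.210 CPM in WT and at 1.87, 0.0911, 0.636 and 1.62 CPM in KO. The genotypes were apart in male HFD SAT only, and in each of the other sets at least 1 KO library fell among or below the WT libraries. These are low counts, at most 71 in a library. No WT SAT library was above 0.303 CPM, so the gene could pass the filter on low counts through KO libraries alone. Its direction in SAT is therefore not a result. The call held when any 1 of the 23 libraries was left out. It did not hold without the libraries over 15% ribosomal RNA (log2 fold change 2.53, edgeR adjusted p = 0.158), where 0.0302% of all genes were called. With 6 surrogate variables it did not hold either (1.78, edgeR adjusted p = 0.113), against 2.36% of all genes called.

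*Gsto1* had a lowest, median and highest level of 24.7, 45.7 and 61.1 CPM in KO SAT and of 20.4, 35.0 and 48.6 CPM in WT SAT, with broad overlap. Its call held in 7 of the 23 fits that left out 1 library. In the combined fit of male SAT and VAT 2 of 42 tested members were called, against 3.97% of all genes (2.62% higher and 1.34% lower), with a median of 0.20 over the members and −0.03 over all genes. *Sult4a1* differed by 1.52 log2 units (SE 0.47, adjusted p = 0.0859) and *Ugt1a7c*, at chr1:88095062-88220002, by 0.31 (SE 0.10, adjusted p = 0.0877). Neither was called without the library with muscle RNA (adjusted p of 0.112 and 0.127). *Ugt1a7c* stood at 6.01, 9.07 and 19.3 CPM in KO and 4.87, 7.77 and 16.2 CPM in WT as lowest, median and highest, which overlap widely. The calls held in 10 and 8 of the 32 fits that left out 1 library, and no member was called under several alternatives.

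**Figure D5:**
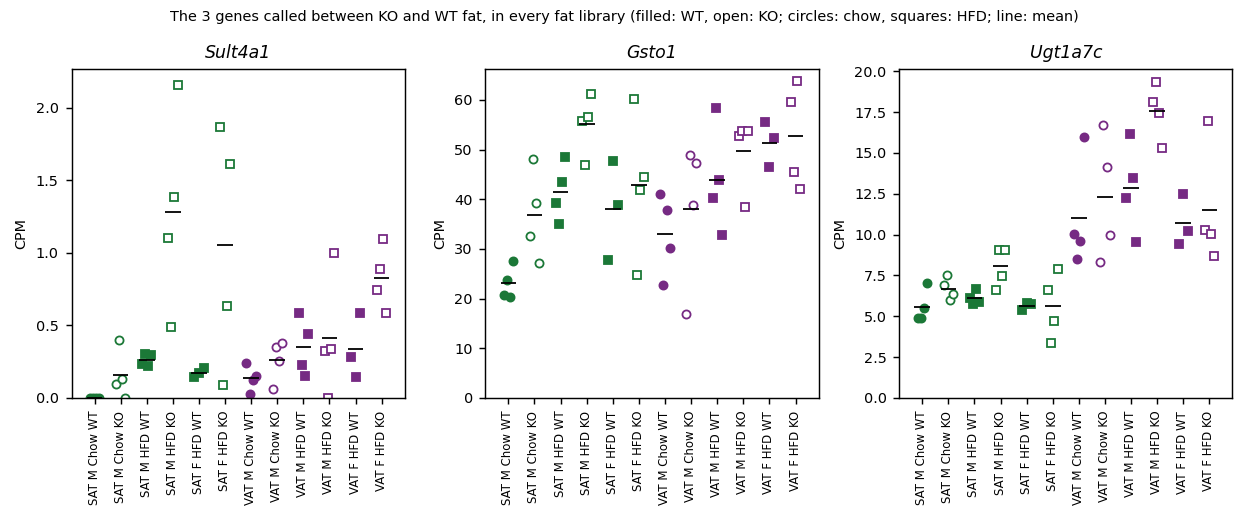
CPM of *Sult4a1*, *Gsto1* and *Ugt1a7c* (linear axes) in each fat library by depot, sex, diet and genotype. The *Sult4a1* levels of KO libraries in male HFD SAT, 0.490 to 2.16 CPM, lie above the WT libraries at 0.221 to 0.303 CPM. *Sult4a1* could pass the filter on low counts in SAT through KO libraries alone, so its direction there is not a result.

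In VAT of both sexes edgeR called 0 of 43 tested members, against 0.00527% of all genes, and 1 member had an unadjusted p under 0.05, *Ugt2b34* (log2 fold change −1.83, adjusted p = 0.579). DESeq2 and limma-voom called 0 as well. *Sult4a1* had a value of 0.85 there. Whether the genotype difference of *Sult4a1* differs between the depots was not tested.

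In male liver edgeR called 0 of 49 members and 0% of all genes for KO against WT. An unadjusted p under 0.05 was found for 13 members (26.5%), 11 higher and 2 lower in KO, against 9.78% of all genes. The smallest p was that of *Gstm2* (log2 fold change 0.53, unadjusted p = 1.21e-04, adjusted p = 0.235), and *Gstm3* (0.98), *Gsta3* (0.60), *Gstk1* (0.31), *Gstm6* (0.38) and *Ugt2b38* (−1.97) were among the others. DESeq2 called *Gstm2* alone and limma-voom 0. Ribosomal RNA moved with genotype in these libraries, with a median of 0.0269% in WT and 4.20% in KO. Without the libraries over 15% edgeR also called 0, and 16 members had an unadjusted p under 0.05. For the difference of the diet effect between genotypes in liver edgeR also called 0 of 49 members and 0% of all genes, with an unadjusted p under 0.05 for 7 members (14.3%) against 6.41% of all genes. *Ugt1a5* had the smallest (log2 difference −1.85, adjusted p = 0.252). DESeq2 called *Ugt1a5* and *Gsta1*, and limma-voom called 0.

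Among the pathway partners in KO SAT, the glutathione synthase *Gss* (log2 fold change 0.32), *Oplah* (0.48), *Slc35b1* (0.34), *Bpnt1* (0.45) and *Nnmt* (0.58) were higher and none was lower. In male SAT and VAT together *Srxn1* (0.50), *G6pdx* (0.55), *Slc35b1* (0.28), *Bpnt1* (0.45), *Nnmt* (0.52) and *Nat1* (1.17) were among the genes called higher, and none was lower. Without the libraries over 15% ribosomal RNA 0.0302% of all genes were called in SAT and 0% in male SAT and VAT together. No partner gene was thus called in the latter fit. In VAT alone and in liver edgeR called no partner gene.

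Females and males on HFD were compared in each depot with genotype as a covariate. No lane held fat libraries of both sexes on HFD, so sex and lane cannot be told apart in these comparisons. In SAT 5 members were higher and 9 lower in females of 40 tested, against 26.6% of all genes called, 13.5% higher and 13.1% lower. The median was 0.03 over the members and 0.01 over all genes. In VAT 12 were higher and 2 lower of 41 tested, against 39.5% of all genes called, 19.5% higher and 20% lower. The medians there were 0.20 and −0.01. The female libraries did not overlap the male ones for 8 of the 14 called members in VAT (57.1%, against 23.6% of all genes called) and for 1 of 14 in SAT (7.14% against 17.4%).

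*Sult1e1*, at chr5:87575969-87591594, stood out in both depots. Its 7 female SAT libraries held 1 count in all and the 8 male HFD SAT libraries 289, a ratio of pooled CPM of 221 with an exact 95% counting interval of 39.3 to 8753. In VAT the 7 female libraries held 1 count and the 8 male libraries 1700, a ratio of 1661 (298 to 65643), and the interval covers counting error only. Every female library in either depot was below every male library of that depot. The gene passed the test in SAT (edgeR adjusted p = 3.46e-05) and in VAT (edgeR adjusted p = 1.97e-06), and the call held when any 1 library was left out. With 1 count over the female libraries of each depot, it could pass the filter on low counts through male libraries alone. These calls therefore add no support to its direction, and the counts are a description.

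Most of the differences in VAT were higher levels in females. *Gsta3* had a lowest, median and highest level of 36.9, 43.0 and 79.7 CPM in females and 9.86, 18.5 and 26.0 CPM in males (log2 fold change 1.47, SE 0.22). *Sult1a1* stood at 57.4, 92.0 and 107 CPM in females and 19.1, 37.2 and 51.0 CPM in males (1.29), and *Gstm2* at 68.9, 73.4 and 87.5 against 28.3, 41.2 and 54.1 CPM (0.83). For all 3 genes the sexes did not overlap. The same held for *Ugt3a2* (1.04), *Ugt1a6b* (0.82), *Gstm4* (0.67) and *Gstk1* (0.84). *Gstz1* (0.84), *Mgst1* (0.47), *Mgst2* (0.44), *Gstp1* (0.35) and *Gstm1* (0.31) were higher with overlapping ranges, and *Ugt1a7c* was lower (−0.48).

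Macrophage markers were lower in female VAT for 10 of 10 genes, with sums of 591 to 1052 CPM against 1888 to 5861 CPM in males, and adipocyte markers were higher for 9 of 10, with sums of 14177 to 19193 against 6157 to 12700 CPM. With either score as a covariate *Sult1e1* was the 1 member called in VAT. The calls over all genes went from 39.5% to 0.154% with the adipocyte and 0.0513% with the macrophage score, so sex and these cell markers cannot be told apart.

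In SAT *Gstt3* (log2 fold change 0.65), *Gsta3* (0.69), *Gsta4* (0.76), *Gstm4* (0.29) and *Gstm6* (0.55) were higher in females. *Gstm4* was not called without replicate 3 of the female HFD SAT WT group. Of the 9 lower members 7 were liver-type genes, *Ugt2b5* (−4.00), *Sult2a8* (−3.86), *Ugt2a3* (−3.42), *Ugt2b36* (−3.02), *Ugt2b34* (−2.30), *Ugt2b35* (−2.27) and *Ugt2b1* (−1.02), and the others were *Sult1e1* and *Ugt1a6b* (−0.50). The liver-type genes had low counts in SAT, and most could pass the filter on low counts through the male libraries alone. Their direction is therefore not a result. The hepatocyte markers were lower in female SAT for 7 of 10, with sums of 15.9 to 76.0 CPM against 18.4 to 229 CPM in males. With the hepatocyte score as a covariate 14.8% of all genes were called in SAT, and 6 members: *Gsta3*, *Gsta4*, *Gstt3*, *Sult1e1*, *Ugt1a6b* and *Ugt2b5*.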

How the data were processed

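RNA of 62 mouse tissue samples was sequenced from TruSeq Stranded libraries. The authors aligned reads with STAR (version 2.5.3a in the submitters' processing notes) to GRCm38 with Gencode M11 and deposited raw gene counts, which leave out reads overlapping more than 1 gene. Which strand column was kept is not given in the sources used here, so genes with an opposite-strand neighbour (*Gstm5*, *Gstz1*, *Sult1a1*, *Sult2b1*, *Sult6b1* and the *Ugt1a* genes) are less certain. Columns were matched to groups by the labels, and each group was taken as separate mice.

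From these counts, identifiers were matched to GENCODE M21 (48435, 99.3%). CPM used TMM-normalised library sizes, and TPM used merged exon length with the nuclear ribosomal RNA gene left out of the sum. Each comparison was fitted on the whole table with edgeR 4.0.16 (filterByExpr, TMM, quasi-likelihood test) in R 4.3.3, with Benjamini-Hochberg adjustment over all genes tested, and called at FDR 10%, as in the study. The SE is the absolute log2 fold change over the root of F. The study's RNA quality values and hidden factors were not used here. No label names the mouse behind a library, so p-values measure the spread between these samples, which may be technical in part. Code was tested on simulated data. Figures were drawn with matplotlib 3.10.9 in Python 3.11.15.

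Alternatives were DESeq2 1.42.0, its size factors in edgeR, limma-voom (limma 3.58.1), no filter, at least 10 counts in every library, FDR 5%, surrogate variables (sva 3.50.0; 6 in fat, 3 in liver), marker scores as covariates, WT alone, the ribosomal RNA gene left out, and leaving out each library. Leaving out libraries over 15% ribosomal RNA, over 1000 CPM of epididymis markers, over 10000 CPM of muscle markers or over 100 CPM of *Prm1*, and the lymph node, macrophage and hepatocyte scores, were chosen after seeing the data. Members, lists and tests were chosen with earlier results of these data known. Named in each comparison were the called members of smallest p, at most 12, with lowest, median and highest level or each value for the first 4, the 4 largest called log2 fold changes, and the 8 highest TPM per tissue. The other called members were added beyond that rule. Markers of each cell type and the pathway lists (glutathione supply, Nrf2 targets, cosubstrate supply, export, cleavage, regulators, other conjugating enzymes) came from textbook knowledge. Some listed genes are not reported here. Promoters are those of RefSeq on GRCm38.p6; 8 members had no entry. *Ugt2a1* had no count and was not tested.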

Additional observations from a re-analysis of the deposited data

Results flagged for a closer look

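In 14 of 158 groups of 4 libraries, over 16 members, 1 library lay far from the other 3 by the spread of its group, and chance flags about 1 in 20 groups. In the VAT libraries with epididymis markers these were *Gstt3* at 18.6 CPM and *Sult1c2* at 5.51 CPM in replicate 2 of the male chow VAT WT group, and *Gstt3* at 23.3 CPM, *Sult1c2* at 10.8 CPM and *Gstm2* at 167 CPM in replicate 1 of the male chow VAT KO group. *Sult1e1* was apart in 4 groups, at 14.3 CPM in replicate 4 of chow liver WT, 3.93 CPM in replicate 3 of chow SAT KO, 3.36 CPM in replicate 1 of male HFD liver WT and, as the lowest, 1.64 CPM in replicate 3 of male HFD VAT WT. The others were *Gsta3* at 56.0 CPM in replicate 2 of female HFD VAT KO, *Sult1a1* at 87.1 CPM in replicate 3 of male HFD SAT WT, and the low values of *Gsto1* at 38.4 CPM in replicate 3 of male HFD VAT KO, *Sult1b1* at 42.3 CPM in replicate 1 of male HFD liver WT and *Ugt1a6a* at 0.942 CPM in replicate 3 of male HFD SAT KO.

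The diet difference in liver minus that in fat, in log2 units by the edgeR test of that difference, was past FDR 10% for 28 members. It was positive for *Gsta3* (2.53), *Gstm3* (2.07), *Gstt3* (1.97), *Sult5a1* (1.58), *Gsta4* (1.55), *Gstp3* (1.52), *Ugt1a6a* (1.19), *Ugt1a2* (1.15), *Gstm2* (1.05), *Gstt1* (1.02), *Mgst3* (0.86), *Gstt2* (0.85), *Gstm1* (0.81), *Ugt1a5* (0.78) and *Gstk1* (0.44). It was negative for *Ugt2b5* (−5.16), *Ugt2b36* (−4.56), *Sult2a8* (−4.49), *Ugt2b35* (−4.36), *Ugt2a3* (−4.14), *Ugt2b34* (−4.10), *Ugt1a9* (−3.96), *Ugt2b1* (−3.03), *Gstp2* (−2.08), *Ugt3a2* (−1.89), *Ugt1a8* (−1.38), *Ugt1a7c* (−0.57) and *Gsto1* (−0.43). Of these 13, 8 are liver-type genes with levels near 0 in chow fat, where hepatocyte markers were also lower than on HFD.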

How the results depend on the processing

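Leaving out 1 library at a time, the called members numbered 52 in each fit for liver against fat, 22 to 28 for VAT against SAT, 27 to 31 for HFD in liver, 19 to 26 in SAT and 14 to 27 in VAT, 25 to 30 for the diet difference in liver minus fat, 0 to 3 for KO in male fat, 1 to 6 in SAT, 0 in VAT and 0 to 1 in liver, 0 to 1 for diet by genotype, and 10 to 14 in SAT and 12 to 17 in VAT for females against males. With at least 10 counts in every library fewer members could be tested, and the calls over all genes tested are given in brackets. Called members were 16 for liver against fat (6067 of 6863), 8 for VAT against SAT (3044 of 6863) and 11 for liver minus fat (3486 of 6863). HFD gave 11 in SAT (7926 of 12868) and 11 in VAT (5817 of 11827). KO in SAT gave 1 (991 of 12577) and females against males in SAT 6 (3556 of 13292). WT libraries alone gave 19 for HFD in liver (4333 of 14144). For HFD in SAT the lymph node score gave 11 (26% of all genes) and the hepatocyte score 3 (17.3%), and in VAT the macrophage score gave 0 (0%).

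For KO in male fat, 0 members were called without the filter (338 of 36121 genes), by limma-voom (691 of 18561) and at FDR 5% (325 of 18561). The same held without the other flow cell (1.45% of all genes) and with the adipocyte (4.07%) or lymph node score (0.717%). It also held without libraries over 15% ribosomal RNA (0%) and without the library with muscle RNA (2.67%). With the ribosomal RNA gene left out 1 was called (768 of 18706). For KO in SAT, 1 was called without the filter (389 of 32385 genes), at FDR 5% (310 of 18366) and without the other flow cell (2.09% of all genes). It was also 1 with the adipocyte (1.52%) or lymph node score (2.4%) and without the muscle library (2.53%). With 6 surrogate variables (2.36%) or without libraries over 15% ribosomal RNA (0.0302%) it was 0. KO in liver gave 3 without the filter (39 of 26609 genes) and 1 by DESeq2 (91 of 12506). Diet by genotype gave 2 in each (43 of 26609 and 24 of 13630). Females against males in SAT gave 9 without libraries over 15% ribosomal RNA (24.1% of all genes), 3 with the macrophage (7.89%) and 6 with the hepatocyte score (14.8%). In VAT they gave 1 with the adipocyte (0.154%) and 1 with the macrophage score (0.0513%). By CPM with no length, 5 of the 8 highest members of liver stayed in the list.

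Of the single-gene values, 15 changed sign and 343 only lost the call, while 2516 kept both. Without the 4 VAT libraries with epididymis or sperm-cell RNA *Gsta2* (−0.85) and *Gsto2* (−0.066) turned in VAT against SAT. With the lymph node score *Gstp3* turned for HFD in SAT (0.53), and with the macrophage score *Gstm6* (2.57), *Gstm7* (4.0), *Gstp2* (−0.060), *Gstt3* (0.26) and *Ugt1a1* (0.27) turned in VAT. For females against males in VAT *Gstk1* (−0.19), *Gstp1* (−0.43), *Gstz1* (−0.30), *Mgst1* (−0.51), *Mgst2* (−0.29) and *Ugt1a6b* (−0.016) turned with the adipocyte score and *Gstp1* (−0.25) with the macrophage score. The macrophage fit for HFD in VAT called 0 of all 17330 genes. The adipocyte and macrophage fits for females against males in VAT called 0.154% and 0.0513% of all genes. The sign changes in these VAT fits therefore say nothing about the members. For the diet difference in liver minus fat *Gstm3* was not called without the 2 epididymis libraries (1.54, adjusted p = 0.166) or the 4 (1.06). The cause was not tested. No paired analysis was possible because the labels carry no number that links libraries of the same mouse across groups. Members under about 1 CPM rest on few counts in each library, so their fold changes are loose.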
